A study of Mus musculus with 8 samples.

Results

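The 7 genes described here are H2-Aa, H2-Ab1, H2-Eb1, Cd74, H2-DMa, H2-DMb1 and Ciita, which act together in MHC class II antigen presentation. They were picked by symbol from a table of 23827 rows, and each stood on 1 row. The choice was made because class II genes were higher in knockout than in control ganglia while macrophage genes were not. The difference between the groups therefore chose the genes and is given for them as a description, with no test.

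RNA came from superior cervical ganglia, the uppermost ganglia of the sympathetic trunk, of mice of strain C57Bl6/n on postnatal day 1. The conditional knockout group (cKO, 4 animals) had the genotype KIF1Bb fl/fl : DBHcre +/-. The control group (WT, 4 animals) had the genotype KIF1Bb fl/fl : DBHcre -/-, so all 8 animals carried the floxed allele of the kinesin gene and the groups differed in the Cre transgene. DBHcre is driven by the promoter of dopamine beta-hydroxylase, an enzyme of noradrenergic cells, so the allele is not deleted in ganglion cells that never express Cre. No Cre-positive animals without the floxed allele were analysed, so loss of the kinesin and presence of Cre cannot be told apart. Each library came from the ganglion pair of 1 animal.

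MHC class II molecules are pairs of an alpha and a beta chain that present peptides from the endosomal pathway to CD4+ T cells. Cd74, the invariant chain, binds new class II molecules and escorts them to endosomes, and H2-DM exchanges its last fragment for a peptide. Ciita is the master coactivator of these genes and is recruited to a conserved X box and Y box in their promoters. Dendritic cells, B cells and macrophages are the usual sources of class II, and interferon gamma can induce it in other cells, including endothelial and glial cells.

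Of the 7 genes, 5 lie on chromosome 17 in the H2 complex. On GRCm38, the assembly also called mm10, H2-Aa spans chr17:34282744-34287823 on the minus strand. H2-Ab1 spans chr17:34257689-34269419, H2-Eb1 chr17:34305867-34316674, H2-DMb1 chr17:34153072-34160230 and H2-DMa chr17:34119541-34139101, all on the plus strand. The promoter sequences are shown because the X and Y boxes are what the chain genes share as targets of Ciita. RefSeq promoter windows (GRCm38.p6, 250 bases before to 50 after the start site) were found for 4 of the 7 genes, H2-Aa, H2-Eb1, H2-DMb1 and H2-DMa. The 150 bases before the start site read as follows, 5′ to 3′ on the strand of the gene. They cover chr17:34287824-34287973 (minus) for H2-Aa, chr17:34305717-34305866 (plus) for H2-Eb1, chr17:34153041-34153190 (plus) for H2-DMb1 and chr17:34122682-34122831 (plus) for H2-DMa. Capitals mark the X box core, searched as GCAAC or GNAAC, and the Y box core ATTGG, the reverse complement of CCAAT.
H2-Aa: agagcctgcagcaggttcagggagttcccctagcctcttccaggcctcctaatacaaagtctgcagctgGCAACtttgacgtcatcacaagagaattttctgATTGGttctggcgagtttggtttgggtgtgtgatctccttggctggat
H2-Eb1: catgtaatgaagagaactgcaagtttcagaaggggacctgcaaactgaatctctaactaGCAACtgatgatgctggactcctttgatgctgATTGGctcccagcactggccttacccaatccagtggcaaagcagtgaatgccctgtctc
H2-DMb1: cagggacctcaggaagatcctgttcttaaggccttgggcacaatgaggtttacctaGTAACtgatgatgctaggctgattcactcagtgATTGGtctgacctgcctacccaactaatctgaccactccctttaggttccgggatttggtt
H2-DMa: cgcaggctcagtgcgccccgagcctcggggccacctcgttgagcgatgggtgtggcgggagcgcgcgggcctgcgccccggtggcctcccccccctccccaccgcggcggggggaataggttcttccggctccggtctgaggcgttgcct

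H2-Aa held GCAAC at position -81 and ATTGG at -48 from its start site, 33 bases apart. H2-Eb1 held the same pair at -91 and -59, 32 bases apart. GCAAC followed by ATTGG, 15 to 40 bases apart on the strand of the gene, was found in 0.621% of 32851 promoter windows of the same length. H2-DMb1 held GTAAC in place of GCAAC, at -94, with ATTGG at -61. With GNAAC as the first motif, a form chosen after its sequence was seen, 2.09% of windows held the pair. H2-DMa held neither form of the pair in either of its 2 windows. Their start sites, 34122832 and 34125518, lie inside the annotated span of the gene, chr17:34119541-34139101, and not at its start. The first lies just past Brd2, a gene on the opposite strand whose annotation reaches 34122634. Whether either window belongs to the main coding transcript was not tested. The absence of the pair therefore holds for these windows and not for H2-DMa as a gene. Each motif alone is common, CCAAT being in 37.4% and GCAAC in 35.2% of windows on either strand, and the longer form GCAACAG (5.48% of windows) was in none of the class II windows. The pair was also in the windows of H2-Oa, H2-Ob and H2-Eb2, which are class II genes outside the 7, and neither form was in that of H2-DMb2. These matches describe letters in a window and are no evidence of binding.

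Reads were counted per gene, with library totals from 16214912 to 18114418, and levels are in CPM, the usual unit for a gene's share of all counted reads, computed with library totals scaled by edgeR's TMM factors. Of 14592 genes tested with edgeR's quasi-likelihood test, 397 (2.72%) passed at a Benjamini-Hochberg adjusted p below 0.05. Among them 234 (1.60%) were higher and 163 (1.12%) lower in cKO. On the same genes the DESeq2 Wald test called 1012 and limma voom 414, in either direction. The number of all genes with an unadjusted p below 0.05 is not given here. The median log2 fold change of all tested genes was -0.00. Kif1b, the targeted gene, averaged 260 ± 52.7 CPM in cKO and 1224 ± 222 CPM in WT (SD, n = 4 each), and each cKO library lay below each WT library. Markers of sympathetic neurons, such as Th and Dbh, had summed levels between 14722 and 16052 CPM in cKO and between 18024 and 18893 CPM in WT. Of 10 tested, 8 had a negative and 2 a positive log2 fold change. In edgeR 0 passed, and DESeq2 called 2 (Slc6a2 and Prph) and limma voom 0. Th overlapped between the groups, at -0.125 (edgeR adjusted p = 0.576). Dbh lay lower in each cKO library than in any WT library, at -0.194 (edgeR adjusted p = 0.293). A few libraries stood apart in markers of neighbouring tissue. Muscle and cartilage markers summed to 245 CPM in cKO 1 and 122 CPM in WT 1, and sensory neuron markers to 178 CPM in cKO 4, each far above the rest of its group. Without replicate 1 of both groups 437 genes passed, and without replicate 4 of both groups 65.

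The 3 class II chains had low but measurable levels in all 8 ganglia and were higher in every cKO library than in any WT library. H2-Aa, the alpha chain of the I-A molecule, had 10.3, 9.32, 6.13 and 9.44 CPM in cKO, against 2.82, 3.13, 4.58 and 2.86 CPM in WT. Its mean was 8.81 ± 1.84 CPM in cKO and 3.35 ± 0.834 CPM in WT (SD, n = 4 each), a log2 fold change of 1.39 (SE 0.22). Library cKO 3 was the lowest of its group and library WT 3 the highest of its own.

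H2-Ab1, the beta chain that pairs with H2-Aa, had 9.89, 7.46, 5.85 and 8.09 CPM in cKO, against 3.00, 2.01, 3.21 and 2.49 CPM in WT. The mean was 7.82 ± 1.67 CPM in cKO and 2.68 ± 0.539 CPM in WT, and the log2 fold change of 1.54 (SE 0.21) was the largest of the 7 genes. The lowest cKO library stood above the highest WT library by a wider margin than for H2-Eb1. H2-Eb1, the beta chain of the I-E molecule, had 11.0, 9.08, 5.62 and 10.1 CPM in cKO, against 3.98, 2.76, 5.04 and 2.86 CPM in WT. Its log2 fold change was 1.29 (SE 0.26). Mice of the C57BL/6 background do not make the I-E alpha chain, and H2-Ea-ps, the pseudogene row for it, was at 0 in every library.

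Cd74, on chromosome 18, had the highest count of the 7 genes in cKO, with 384, 341, 274 and 397 reads, against 116, 79, 193 and 103 reads in WT. In CPM these were 21.9, 20.4, 15.6 and 21.4 in cKO and 7.11, 4.95, 11.1 and 6.26 in WT. The groups did not overlap, and as for the chains cKO 3 was the lowest and WT 3 the highest of their groups. Cd74 averaged 19.8 ± 2.92 CPM in cKO and 7.34 ± 2.63 CPM in WT, a log2 fold change of 1.43 (SE 0.23).

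The H2-DM genes, which edit the peptide in the groove, did not move together. H2-DMb1 was scarce, with 24, 21, 20 and 17 reads in cKO, against 5, 9, 16 and 5 reads in WT. It had 1.17 ± 0.194 CPM in cKO and 0.523 ± 0.289 CPM in WT, a log2 fold change of 1.14 (SE 0.35). Its groups were kept apart by 0.917 CPM in cKO 4 against 0.916 CPM in WT 3. H2-DMb1 passed the filter on low counts mainly through the group where it was high, since 4 cKO libraries and 1 WT library exceeded the filter's 0.586 CPM. Its counts are uncertain because H2-DMb2 is a close copy, and the counting of shared reads is not described in the sources used here.

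H2-DMa had 14.9, 14.5, 13.1 and 16.8 CPM in cKO, against 18.02, 15.2, 17.9 and 14.1 CPM in WT. The groups overlapped, and the log2 fold change was -0.14 (SE 0.13). H2-DMa overlaps Brd2 on the opposite strand, which had 27829 reads over the 8 libraries, and without strand in the counting their reads cannot be told apart. Ciita, on chromosome 16, had 11, 8, 7 and 7 reads in cKO, against 10, 9, 10 and 14 reads in WT, and did not pass the filter. The ratio of its summed counts, cKO over WT, was 0.746, with a 95% interval from 0.459 to 1.20 that covers counting error only. At this depth neither a rise nor a fall of Ciita was detectable, and 14 reads was its highest count. Ciita overlaps Dexi on the opposite strand, which had 1079 reads, so its reads too may have been shared or lost in counting.

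**Figure D1:**
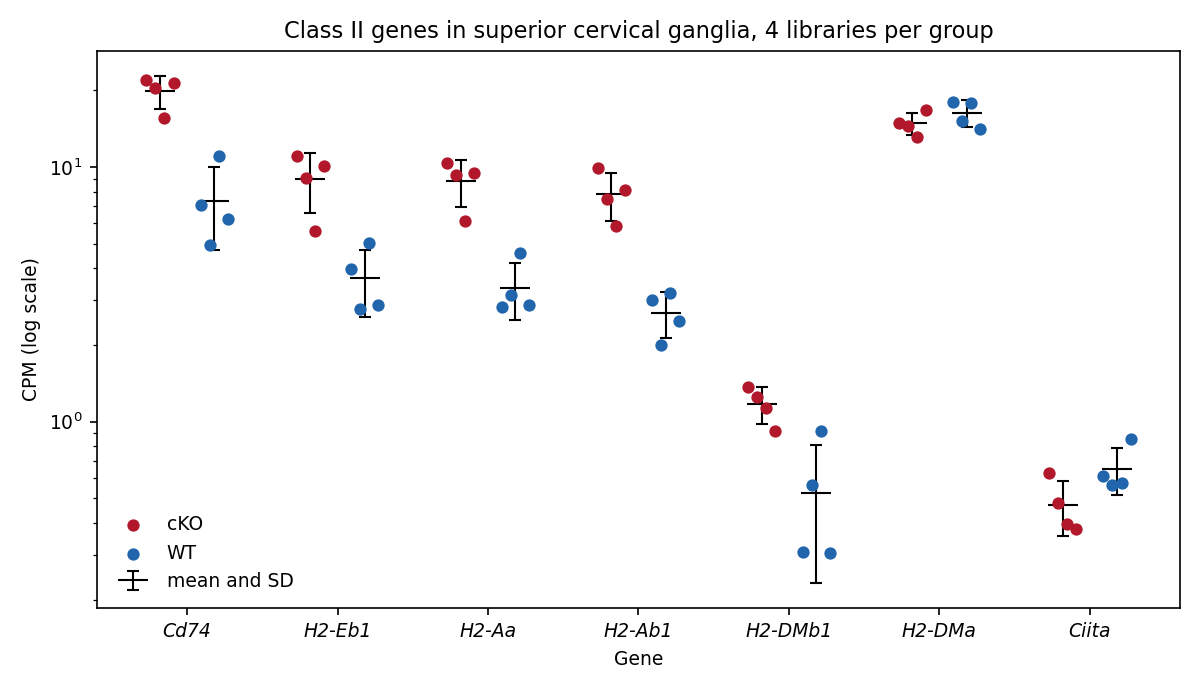
CPM (log axis) of the 7 genes in each of 4 cKO and 4 WT libraries, with 1 point per library and bars for the group mean and SD. The points of H2-Aa, H2-Ab1, H2-Eb1 and Cd74 do not overlap between groups, those of H2-DMb1 nearly touch, and those of H2-DMa and Ciita overlap.

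Of the 7 genes, 6 were tested and 4, the 3 chains and Cd74, were among the genes called higher, against 1.60% of all tested genes. In 5 of the 7 all cKO libraries lay above all WT libraries, against 6.00% of tested genes (cKO lay wholly below in 5.02%). Since the same contrast chose the genes, nothing is read from these shares. The fits with libraries left out use that contrast too. They describe how far the calls depend on single libraries and are no test of the genes. H2-Ab1 stood at rank 26 of all tested genes by log2 fold change. It remained among the called genes with each of the 8 libraries left out, at log2 fold changes from 1.40 to 1.65. Cd74 was no longer called without WT 4, at 1.36. H2-Aa was no longer called without WT 2 or WT 4, at 1.36 and 1.32. H2-Eb1 was called in 3 of the 8 such fits. It was not called without cKO 1, 2 or 4 (1.16, 1.28 and 1.22) or without WT 2 or 4 (1.17 and 1.18). Without replicate 1 of both groups, where muscle and cartilage markers stood apart, the log2 fold changes were 1.23 for H2-Aa, 1.47 for H2-Ab1, 1.21 for H2-Eb1 and 1.36 for Cd74, and H2-Eb1 was not called. Without replicate 4 of both groups, 1 of which stood apart in sensory neuron markers, they were 1.29, 1.49, 1.12 and 1.32 in the same order of genes, and none of the 4 was called.

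Per kilobase of the main coding transcript, which allows levels of different genes to be set side by side, Cd74 was the highest in cKO at 14.1 ± 2.07 CPM per kb. It was followed in cKO by H2-DMa at 8.94 ± 0.911, H2-Aa at 7.81 ± 1.63, H2-Ab1 at 6.45 ± 1.38 and H2-Eb1 at 5.36 ± 1.41 CPM per kb. The neighbours in this order from H2-DMa to H2-Eb1 differed by less than the sum of their SDs. H2-DMb1 at 0.833 ± 0.138 and Ciita at 0.0783 ± 0.0190 CPM per kb lay clearly below. In WT H2-DMa was the highest at 9.83 ± 1.18 CPM per kb, above Cd74 at 5.21 ± 1.86. The chains followed in WT at 2.97 ± 0.739 for H2-Aa, 2.21 ± 0.445 for H2-Ab1 and 2.19 ± 0.644 CPM per kb for H2-Eb1, and these 3 did not differ beyond their spread. H2-DMb1 had 0.372 ± 0.206 and Ciita 0.108 ± 0.0226 CPM per kb in WT. Cd74 thus stood above H2-DMa in cKO and below it in WT. The level of H2-DMa may include reads of Brd2, so the place of H2-DMa in both orders is uncertain.

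The summed class II level separated the groups, and the share of each gene in that sum did not. The summed level of the 3 chains and Cd74 was 53.2, 46.2, 33.2 and 49.0 CPM in cKO, against 16.9, 12.9, 23.9 and 14.5 CPM in WT. Cd74 made up 44.0 ± 2.32% of these reads in cKO and 42.5 ± 3.21% in WT. H2-Aa made up 19.3 ± 0.683% in cKO and 20.0 ± 3.22% in WT. The share of H2-Ab1 was 17.2 ± 1.11% in cKO and 16 ± 1.94% in WT, and that of H2-Eb1 was 19.5 ± 1.75% in cKO and 21.5 ± 1.57% in WT. Per kilobase, Cd74 stood at 2.18 ± 0.196 times the mean of the 3 chains in cKO and 2.08 ± 0.281 times in WT. The sum over H2-DMa, as a ratio of counts, was 3.05 ± 0.443 in cKO and 1.04 ± 0.213 in WT, with the same uncertainty in the H2-DMa counts. In a ganglion taken whole, more cells of a type and more RNA per cell cannot be told apart.

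Within the groups the 4 genes varied together from animal to animal, a measure that the choice of genes did not use. In cKO 3, H2-Aa, H2-Ab1, H2-Eb1 and Cd74 lay 0.49, 0.39, 0.62 and 0.33 below the cKO mean on the log2 CPM scale, each the lowest of its group. In WT 3 they lay 0.47, 0.27, 0.49 and 0.64 above the WT mean, each the highest of its group. Cd74 was compared with the sum of the chains by these deviations from the group means, over 8 libraries. Pearson's r was 0.90 (exact two-sided permutation p = 0.00174, adjusted 0.0156 over 9 relations) and Spearman's rho was 0.976 (exact permutation p = 0.00174, adjusted 0.0156). The p of 0.00174 is the smallest that the 576 arrangements within groups allow. Without cKO 3 and WT 3, the libraries farthest from the median, r was 0.899.

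For H2-DMa against the chains r was 0.763 (exact permutation p = 0.0521, adjusted 0.234) and rho 0.667 (exact permutation p = 0.115, adjusted 0.344), and r without the same 2 libraries was 0.636. For H2-DMb1 r was 0.432 (exact permutation p = 0.326, adjusted 0.490) and rho 0.381 (exact permutation p = 0.476, adjusted 0.665), and r without those 2 was 0.176. Of the 3, the relation of Cd74 to the chains alone passed the adjustment, and differences between the 3 relations were not tested. H2-DMb1 had as few as 5 reads in a library, and the reads of H2-DMa may include those of Brd2.

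**Figure D2:**
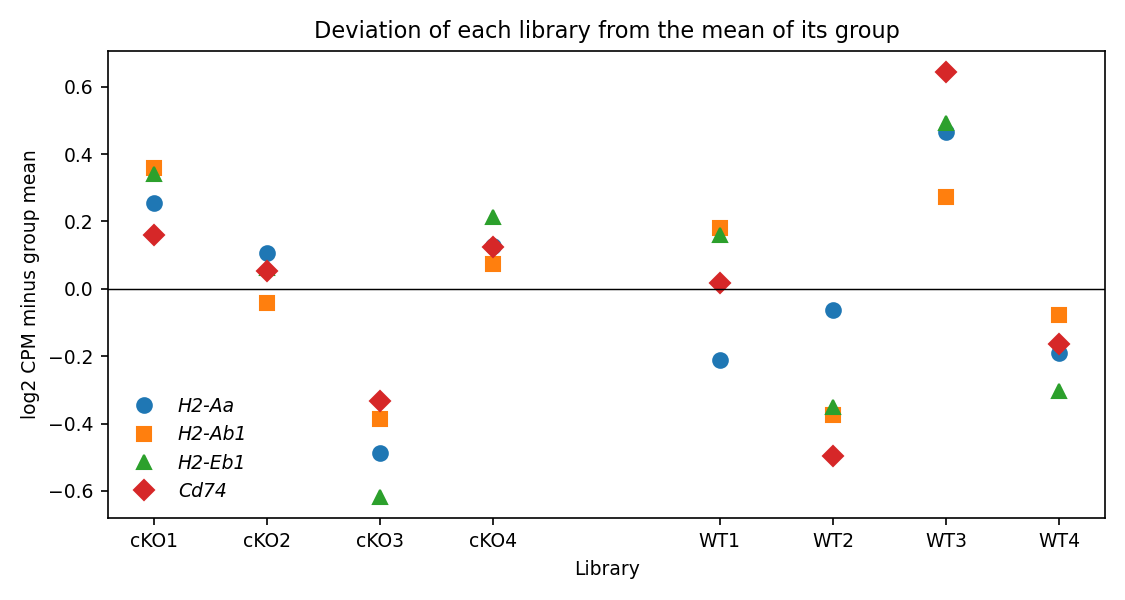
Deviation of log2 CPM from the group mean for H2-Aa, H2-Ab1, H2-Eb1 and Cd74 in each of the 4 cKO and 4 WT libraries. cKO 3 is the lowest of its group and WT 3 the highest of its group for all 4 genes.

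Outside the 7, the 8 genes whose deviations were most like the mean deviation of the 4 genes had r from 0.935 to 0.971 over the 8 libraries, the highest among 13102 ranked genes. In order they were 4732456N10Rik, Nfil3, Tmco4, Chkb, Traf1, Zfp36l2, Lmna and 2010003O02Rik. With 8 libraries, a ranking of this many genes holds high values in any case, and r is given as a description. Of the 8 genes, 4732456N10Rik passed the test between groups, at 1.02 (SE 0.16, edgeR adjusted p = 0.0114) on the log2 scale. That call was lost without WT 2 or WT 4, and the log2 fold change lay between 0.93 and 1.13 with each library left out. Nfil3, a transcription factor of immune cells, had -0.08 (SE 0.14, edgeR adjusted p = 0.850). The macrophage receptor gene Csf1r had an r of -0.189 and the leukocyte gene Ptprc one of -0.424 with the 4 genes.

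The remaining class II genes were too scarce to test, though each of those with reads had more in cKO. H2-Oa, the alpha chain of H2-O, which restrains H2-DM, had 13 reads in cKO and 6 in WT, a ratio of 2.11 with a 95% interval from 0.747 to 6.75. Its partner H2-Ob had 34 reads in cKO and 21 in WT, a ratio of 1.57 (0.887 to 2.85). H2-DMb2 had 12 reads in cKO and 9 in WT, at 1.30 (0.501 to 3.48). H2-Eb2 had 9 reads in cKO and 5 in WT, at 1.75 (0.526 to 6.64). Every interval includes 1, so no difference was detectable for any single gene at this depth. Their summed level was 0.857, 0.896, 1.02 and 1.08 CPM in cKO, against 0.490, 0.815, 0.458 and 0.730 CPM in WT. These sums did not overlap, but the closest libraries had 15 reads (cKO 1 and cKO 2) and 13 reads (WT 2). Nothing is read from so few reads.

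Genes that control class II transcription and turnover did not pass in either direction (0 of 10 tested in edgeR, 1 at an unadjusted p below 0.05, 0 in DESeq2 or limma voom; median log2 fold change 0.01). The RFX subunits, which bind the X box, had log2 fold changes of 0.24 (SE 0.16) for Rfx5, 0.08 (SE 0.14) for Rfxank and -0.09 (SE 0.11) for Rfxap. Nfyc, a subunit of the factor that binds the Y box, had 0.23 (SE 0.13, edgeR adjusted p = 0.418). March8, a ubiquitin ligase that can remove class II from the surface, had -0.33 (SE 0.13, edgeR adjusted p = 0.210).

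Of the enzymes and partners of the invariant chain, 0 of 10 tested passed in edgeR, with a median log2 fold change of 0.06, and 0 had an unadjusted p below 0.05 or passed in DESeq2 or limma voom. Ctss, the protease that completes cleavage of the invariant chain, had 0.31 (SE 0.17, edgeR adjusted p = 0.416). Lgmn, an endosomal protease, had 0.17 (SE 0.10, edgeR adjusted p = 0.443). Both proteases are found in many cell types besides antigen-presenting cells.

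In the interferon gamma pathway, the usual inducer of Ciita, 0 of 17 tested genes passed in edgeR and the median log2 fold change was 0.22. An unadjusted p below 0.05 was found for 7 of them, DESeq2 called 1 (Gbp3) and limma voom 0. Gbp3, a guanylate-binding protein induced by interferon, averaged 6.02 ± 1.15 CPM in cKO and 3.65 ± 0.442 CPM in WT, at 0.72 (SE 0.18, edgeR adjusted p = 0.0629). Gbp4 had 0.67 (SE 0.24, edgeR adjusted p = 0.174). Cxcl10, an interferon-induced chemokine, had 9.20, 3.58, 2.498 and 4.26 CPM in cKO, against 4.11, 1.63, 0.745 and 1.16 CPM in WT. Its groups overlapped, at 1.36 (SE 0.53, edgeR adjusted p = 0.218), and it passed without WT 1, at 2.05. The related chemokine Cxcl9 was too scarce to test, with 14 reads in cKO and 3 in WT, a ratio of 4.53 with a counting interval from 1.27 to 24.6. Ifng itself had 1 read in the cKO libraries together and 0 in the WT libraries.

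Genes of class I presentation were tested in the same fit. Of 14 tested class I genes 1, Nlrc5, passed in edgeR, lower in cKO, and the median log2 fold change was 0.06. Of the 14, 8 had a positive and 6 a negative log2 fold change. An unadjusted p below 0.05 was found for 5, DESeq2 called 2 (Nlrc5 and H2-K1) and limma voom 1 (Nlrc5). Nlrc5, the class I counterpart of Ciita, averaged 6.97 ± 1.24 CPM in cKO and 19.5 ± 2.63 CPM in WT, at -1.48 (SE 0.16, edgeR adjusted p = 0.00236). H2-K1, a classical class I heavy chain, averaged 40 ± 9.17 CPM in cKO and 68.3 ± 15.6 CPM in WT, at -0.77 (SE 0.19, edgeR adjusted p = 0.0585), and it passed without cKO 4, at -0.95. The class I gene H2-T23 lay the other way, at 0.57 (SE 0.20, edgeR adjusted p = 0.169). H2-K1 lies in the H2 complex near the class II genes. Of 29 genes in the table within 200 kb of the class II members on chromosome 17, 19 were tested beside the members. In edgeR 0 passed, 2 had an unadjusted p below 0.05, and DESeq2 called 1 (H2-K1) and limma voom 0. Their log2 fold changes ran from -0.77 (H2-K1) to 0.38 (Col11a2).

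**Figure D3:**
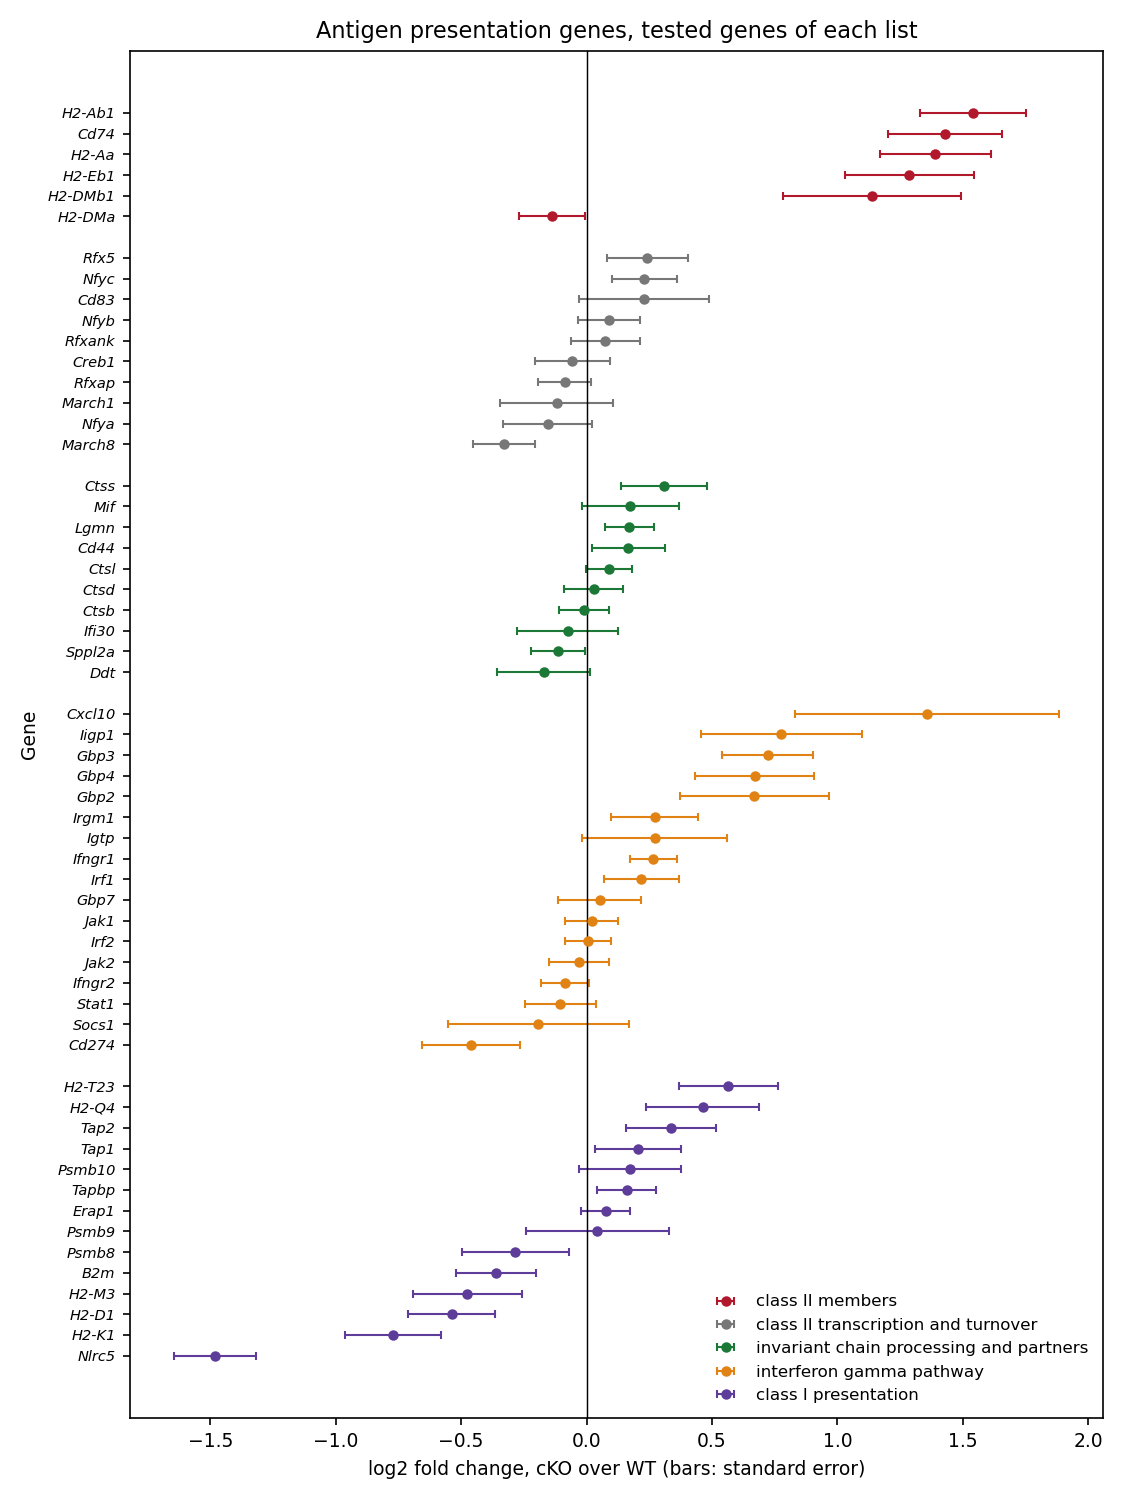
Log2 fold changes, cKO over WT, with standard errors for the tested genes of the class II members and 4 pathway lists. The 3 chains and Cd74 stand between 1.29 and 1.54, and Nlrc5 at -1.48 is the 1 gene of the other lists that passed.

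Markers of the cells that usually carry class II were read beside these values. Macrophage genes were part of the choice of the class II genes, so their levels are also a description. Of 22 macrophage markers that passed the filter on low counts 20 had a positive log2 fold change, with a median of 0.21. Their summed level was 353, 279, 447 and 300 CPM in cKO, against 360, 230, 321 and 274 CPM in WT. The groups overlapped, and cKO 3, lowest of its group in class II, was the highest of all in macrophage markers. Of the 14 dendritic cell markers 6 were tested, 0 passed with any of the 3 tools and 2 had an unadjusted p below 0.05 in edgeR. All 6 had a positive log2 fold change, with a median of 0.48. Their sum ranged from 34.0 to 44.1 CPM in cKO and from 30.2 to 38.3 CPM in WT. Most of that sum was Zbtb46, a transcription factor on the dendritic cell list, with 25.2 ± 3.96 CPM in cKO and 24.2 ± 3.51 CPM in WT. The sum thus mostly follows 1 gene, and whether its reads came from dendritic cells was not tested. The 2 with an unadjusted p below 0.05 were Batf3, at 0.740 (edgeR adjusted p = 0.232), and Irf8, at 0.445 (edgeR adjusted p = 0.293). Of the untested markers, Xcr1 (8 reads in cKO, 13 in WT) and Clec10a (40 and 41) had fewer reads in cKO. The others had more, such as Itgax (52 and 27) and Cd209a (27 and 12).

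The summed level of B cell markers separated the groups, although neither of the tested markers passed. That summed level was 4.29, 7.40, 11.0 and 7.28 CPM in cKO, against 2.70, 1.82, 2.52 and 2.92 CPM in WT, so every cKO library lay above every WT library. Of 10 B cell markers 2 reached the filter on low counts, 0 passed with any of the 3 tools and 1 had an unadjusted p below 0.05 in edgeR. In the fit without that filter, where 1.15% of 19635 genes were called higher, Cd79a and Fcrla were among those called. Cd79a, a signalling chain of the B cell receptor, had 7, 17, 20 and 20 reads in cKO, against 3, 2, 3 and 3 reads in WT (edgeR adjusted p = 0.0155). Fcrla, an Fc receptor-like protein of B cells, had 7, 18, 27 and 14 reads in cKO, against 4, 3, 2 and 2 reads in WT (edgeR adjusted p = 0.0237). These 2 genes were named after their values were seen. Vpreb1, a surrogate light chain of early B cells, lay the other way with 3 reads in cKO and 7 in WT.

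Among the cKO libraries the B cell markers and class II stood in opposite order. Library cKO 1 had the highest class II sum and the lowest B cell sum of its group, and cKO 3 had the reverse. The B cell sums of cKO 2 and cKO 4 were close, at 7.40 and 7.28 CPM. In WT the order was not opposite, and WT 2 was the lowest of its group in both, at 12.9 CPM for class II and 1.82 CPM for B cell markers. The deviations of the B cell sum and the chains gave r = -0.504 (exact permutation p = 0.273, adjusted 0.490) and rho = -0.548 (exact permutation p = 0.201, adjusted 0.363), with r = -0.353 without cKO 3 and WT 3. For macrophage markers r was -0.0645 (exact permutation p = 0.898, adjusted 0.898), rho was -0.0238 (exact permutation p = 0.983, adjusted 0.983) and r without the same 2 libraries was 0.430. For the dendritic cell sum, mostly Zbtb46, r was -0.333 (exact permutation p = 0.495, adjusted 0.636), rho was -0.310 (exact permutation p = 0.517, adjusted 0.665) and r without the 2 was 0.204. None of these relations passed, and with 8 libraries only close relations could. The part of B cells in the class II difference between the groups was not tested.

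The summed levels of endothelial, glial and fibroblast markers also separated the groups. Not every marker followed, and Fabp7 of the glial list and Pi16 of the fibroblast list had log2 fold changes of -0.06 and -0.07. Endothelial sums ranged from 276 to 307 CPM in cKO and from 166 to 227 CPM in WT, and 3 of 9 tested markers passed, Pecam1, Tek and Eng. Glial sums ranged from 1486 to 1629 CPM in cKO and from 1071 to 1322 CPM in WT, and 3 of 11 passed, Mbp, Art3 and Ttyh1. Fibroblast sums ranged from 7267 to 10666 CPM in cKO and from 5231 to 6746 CPM in WT, and 5 of 10 passed, among them Ogn, Pdgfra and Prrx1. The median log2 fold changes of the endothelial, glial and fibroblast lists were 0.54, 0.59 and 0.63. DESeq2 called 6, 8 and 7 of their genes and limma voom 3, 3 and 5, and 9, 8 and 8 had an unadjusted p below 0.05 in edgeR. Over all 14592 tested genes edgeR called 397 (2.72%), DESeq2 1012 and limma voom 414, in either direction. With each library left out, Pecam1 kept log2 fold changes from 0.51 to 0.59, Tek from 0.59 to 0.74, Eng from 0.62 to 0.78, Mbp from 0.70 to 0.83, Art3 from 0.93 to 1.16 and Ttyh1 from 0.36 to 0.44. Without WT 4 none of these 6 was called, and without WT 2 or cKO 3 only Mbp was. Eng, Tek and Ttyh1 were also not called without cKO 2 or WT 3, Tek and Ttyh1 without cKO 1, and Eng and Ttyh1 without cKO 4. Ogn and Pdgfra were called with each library left out (0.88 to 1.02 and 0.91 to 1.15), and Prrx1 was not called without WT 2 or WT 4 (0.57 to 0.71 over the 8 fits).

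The deviations of the class II chains and the endothelial sum gave r = 0.166 (exact permutation p = 0.747, adjusted 0.840), rho = 0.0952 (exact permutation p = 0.852, adjusted 0.959) and r = 0.254 without cKO 3 and WT 3. With the fibroblast sum r was 0.655 (exact permutation p = 0.122, adjusted 0.273), rho was 0.667 (exact permutation p = 0.113, adjusted 0.344) and r without the 2 was 0.146. With the glial sum r was 0.659 (exact permutation p = 0.111, adjusted 0.273), rho was 0.619 (exact permutation p = 0.163, adjusted 0.363) and r without the 2 was 0.373. None passed. The part of these cell types in the class II difference was not tested.

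**Figure D4:**
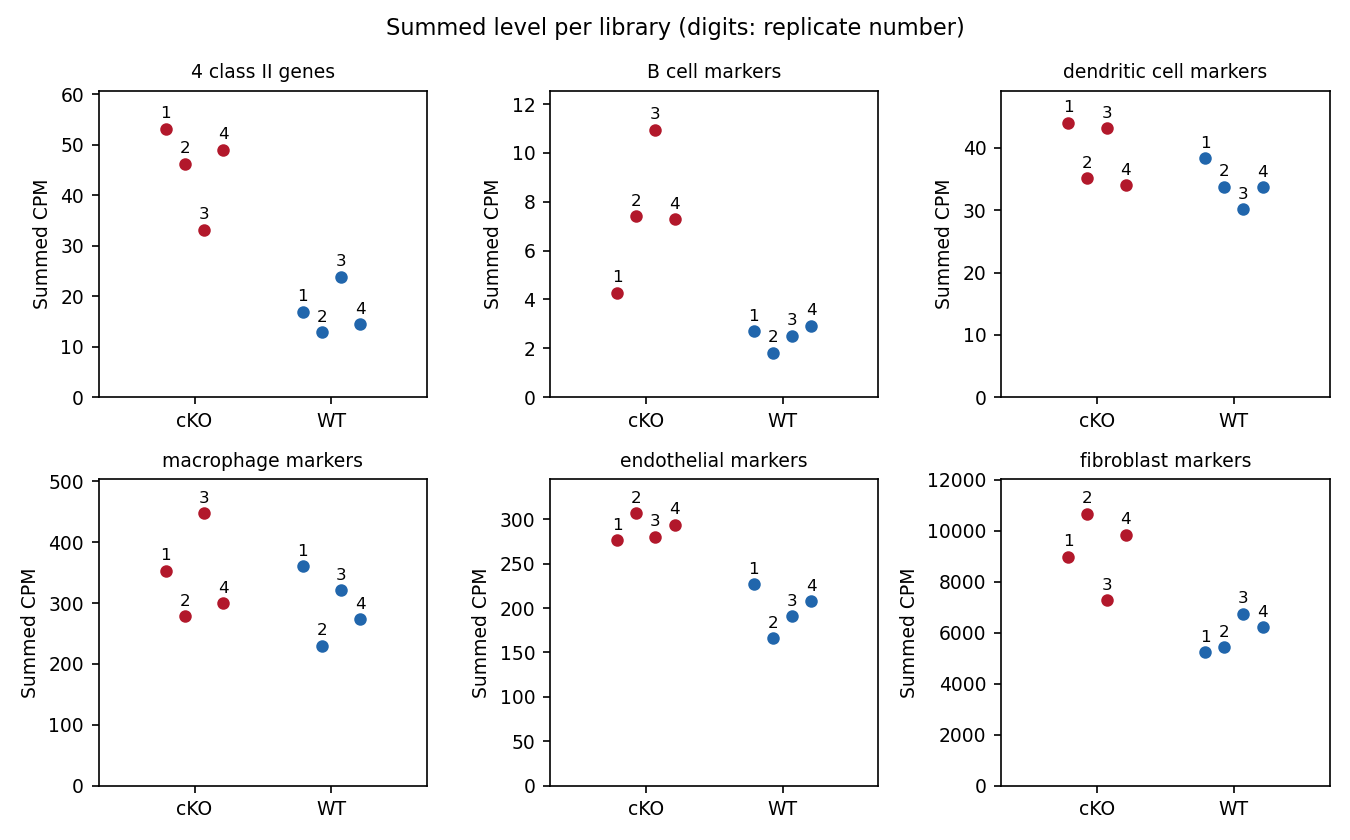
Summed CPM per library of the 4 class II genes and of marker lists, cKO left and WT right, with digits for the replicate number. Class II, B cell, endothelial and fibroblast sums separate the groups, and dendritic cell and macrophage sums overlap. Replicate 1 is the highest cKO library in class II and the lowest in B cell markers, and in WT the order is not opposite.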

How the data were processed

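RNA came from the ganglion pair of each of 8 animals, and libraries of polyadenylated RNA were made with a TruSeq kit, per the labels' protocols. The deposited table holds raw read counts per gene symbol, and per the submitters' processing notes the authors aligned the reads to mm10 with STAR. Not given in the sources used here are the STAR version, the annotation, the program that counted and whether it used strand. Columns were matched to libraries by the sample titles.

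Counts were tested with edgeR 4.0.16 (R 4.3.3; TMM scaling, filterByExpr, robust quasi-likelihood fit on group alone) over 14592 genes, at a Benjamini-Hochberg adjusted p below 0.05. Each standard error is the size of the log2 fold change divided by the root of its F statistic. Log2 CPM used a prior count of 2. The fit was tested on simulated counts. Coordinates and transcript lengths are from GENCODE vM21 (GRCm38), which matched 92.1% of 23351 symbols, and promoter windows are from RefSeq (GRCm38.p6). Lengths are those of the main coding transcript, in place of the union of exons planned at first. Intervals of count ratios are exact binomial ones at 95% and cover counting error only. Likeness was ranked over tested genes with a mean of at least 2 CPM.

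The members and all gene lists were chosen with earlier results of these data known. The text names all members and class II genes, up to 4 passing genes of each pathway list or else the 2 with the smallest p, up to 3 passing markers of each list, the 8 genes by likeness, and Kif1b. The other RFX subunits, Cd79a, Fcrla, Vpreb1, Zbtb46, Fabp7, Pi16, Csf1r, Ptprc, Ifng, Cxcl9, Cxcl10, Cdh1, Epcam, Brd2, Col11a2, Th and Dbh were named beyond that rule, after values were seen. So were Batf3, Irf8, Itgax, Cd209a, Xcr1, Clec10a, Slc6a2, Prph, H2-K1 and H2-T23. The alternatives were DESeq2 size factors in edgeR, library size alone, no filter on low counts, a 1 CPM filter in at least 4 libraries, limma 3.58.1 with voom, DESeq2 1.42.0 with its Wald test, a replicate block, each library left out, and replicate 1 or replicate 4 of both groups left out. The last was added after seeing the data.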

Additional observations from a re-analysis of the deposited data

Results flagged for a closer look

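Of 54 groups of 4 libraries checked for a value far from the other 3, 6 held one, where chance gives about 1 in 20 groups. In WT, Ciita had 0.8511 CPM in WT 4, against 0.564 to 0.613 CPM in the other WT libraries, which is a difference of 4 or 5 reads. In cKO 4 the summed level of the interferon gamma list was 569.6 CPM, against 514 to 522 CPM in the other cKO libraries. The class I list in the same library summed to 541 CPM, against 377 to 401 CPM. Class II did not stand apart there, with 49.0 CPM for the 3 chains and Cd74. Muscle and cartilage markers summed to 245.3 CPM in cKO 1, against 63.8 to 76.1 CPM in the other cKO libraries, and to 122 CPM in WT 1, against 52.5 to 54.3 CPM in the other WT libraries. Sensory neuron markers summed to 177.5 CPM in cKO 4, against 28.5 to 44.7 CPM in the other cKO libraries. In WT they were highest in WT 4, at 73.5 CPM against 28.1 to 44.2 CPM in the other WT libraries, which was not among the 6.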

How the results depend on the processing

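The median log2 fold change of the tested class II genes was 1.34 over 6 genes. Over the 5 to 7 genes that passed the filter in each fit, it lay between 1.17 and 1.56 with each library left out and between 1.20 and 1.39 under the other alternatives. The genes called over the whole table varied more. Against 397, the DESeq2 Wald test called 1012, the replicate block 687, the fits without 1 library from 74 to 514, and the fit without replicate 4 of both groups 65. Library size alone called 488, split 343 higher and 145 lower in cKO, against 234 higher and 163 lower. Of the pathway genes outside the 7, 1 passed (Nlrc5), against 2 with library size alone (also Gbp3), 3 in the DESeq2 Wald test (also Gbp3 and H2-K1), 3 with the replicate block (also H2-K1 and Cxcl10), 2 without replicate 1 of both groups (also Cxcl10), and 1 to 2 without 1 library. Nlrc5 passed with each library left out. The log2 fold change of Rfxank ran from -0.036 (without cKO 3) to 0.14, and that of 2010003O02Rik from -0.23 to 0.17, being 0.05 without cKO 3 and 0.17 without WT 3. The cause of these changes was not tested. Libraries with the same number correlated in their deviations at 0.725, 0.352, -0.302 and 0.265, so the numbers were not taken to pair animals. The labels do not say whether libraries of the same number shared a dissection or batch, and this was not tested. Low counts limit Ciita, H2-DMb1 and the other class II genes most.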

Other observations

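Markers of other immune cells were read in the same libraries. T and innate lymphoid cell markers summed to between 7.23 and 8.23 CPM in cKO and between 4.92 and 8.36 CPM in WT, and 0 of 3 tested passed in edgeR, DESeq2 or limma voom or had an unadjusted p below 0.05. Granulocyte and mast cell markers ranged more widely, from 13.8 to 47.3 CPM in cKO and from 6.21 to 51.5 CPM in WT, and 0 of 5 tested passed with these tools or had an unadjusted p below 0.05. Markers of lymphoid stroma, the supporting cells of lymph nodes, summed to between 1.91 and 3.49 CPM in cKO and between 1.69 and 3.07 CPM in WT. Ccl19 and Ccl21a, chemokines of lymph node stroma, were at 0 in every library. Of 7 epithelial markers 1 was tested, the adhesion gene Cdh1, with 11.6 ± 2.62 CPM in cKO and 6.06 ± 1.62 CPM in WT. The others were scarce, Epcam having 21 reads in cKO and 19 in WT. Cdh1 had a log2 fold change of 0.94 (edgeR adjusted p = 0.0545), and DESeq2 called it.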
